A study of Mus musculus with 16 samples.

Results

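The BCL2 family genes examined here were 10 named genes: the anti-apoptotic *Bcl2*, *Bcl2l1* and *Mcl1*, the pore-forming *Bax* and *Bak1*, and the BH3-only genes *Bbc3*, *Pmaip1*, *Bcl2l11*, *Bid* and *Bad*. They were taken by symbol from the TPM table and by the same Ensembl identifier from the count table, which lists 54393 genes. All 10 were found in both tables, and all 10 were among the 13234 genes that passed the filter on low counts. RNA was sequenced from mIMCD3, an epithelial line from the inner medullary collecting duct of the mouse kidney, labelled wild type. Cells of every group had first spent 10 days on permeable filters in RenaLife medium with growth supplements and serum. They then received doxycycline (DOX, a tetracycline antibiotic and the usual inducer of Tet-controlled transgenes) at 2 µg/mL, or its vehicle DMSO, for 3 or 6 days with fresh medium each day. The 4 groups were DMSO-treated cells at 3 days, DOX-treated cells at 3 days, and the same treatments at 6 days, with 4 replicates each and 16 libraries in all. The labels call them replicates without saying whether they came from separate cultures, so the p-values measure the spread between these libraries, which may be technical.

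Proteins of this family decide at the outer mitochondrial membrane whether a stressed cell dies. BCL2, BCL-XL (from *Bcl2l1*) and MCL1 hold their pro-apoptotic relatives in check. When BH3-only proteins such as PUMA (*Bbc3*), NOXA (*Pmaip1*), BIM (*Bcl2l11*), BID and BAD occupy the groove of these guardians, BAX and BAK form pores, cytochrome c escapes and caspases are activated. Several of the genes, *Bbc3*, *Pmaip1* and *Bax* among them, are textbook targets of p53, and the mIMCD3 line was derived from a mouse carrying the early region of simian virus 40, whose large T antigen binds p53. Doxycycline also slows translation on mitochondrial ribosomes. The question for these genes was whether DOX, often treated as an inert inducer, changed the transcripts on either side of this balance.

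The element that ties the family together is the BH3 helix, by which pro-apoptotic members bind the groove of anti-apoptotic ones. The 12 codons of its core are shown for the genes on which the results below turn, read from GENCODE M21 transcripts on GRCm38 and printed 5′ to 3′ on the coding strand. Capitals mark the codons of the conserved leucine, of the small residue that follows further on, and of the aspartate next to it.
*Bcl2*: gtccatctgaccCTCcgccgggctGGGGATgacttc
*Bax*: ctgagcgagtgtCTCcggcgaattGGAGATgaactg
*Bak1*: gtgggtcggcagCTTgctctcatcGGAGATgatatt
*Bbc3*: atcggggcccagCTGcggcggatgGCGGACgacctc
*Bid*: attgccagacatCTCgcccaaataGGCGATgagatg
*Hrk*: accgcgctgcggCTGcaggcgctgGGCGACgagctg

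The *Bcl2* core lies in exon 1 (chr1:106712578-106712613, minus strand) and that of *Bax* in exon 3 (chr7:45466000-45466035, minus strand). The *Bak1* core is in exon 4 (chr17:27022534-27022569, minus strand), the *Bbc3* core in exon 3 (chr7:16313761-16313796, plus strand) and the *Bid* core in exon 4 (chr6:120897292-120897327, minus strand). The core of *Hrk*, a BH3-only gene outside the set of 10, is in exon 1 (chr5:118169879-118169914, plus strand). The pattern searched in the translated coding sequence was a hydrophobic residue or threonine, any 3 residues, leucine, any 2, a hydrophobic residue, a glycine, alanine or serine, aspartate, any residue, and a hydrophobic one. Each of the 10 genes held exactly 1 match, against 497 of 21755 protein-coding genes (2.28%) with at least 1. Among relatives outside the set, *Bik*, *Bmf*, *Bok* and *Hrk* held 1 match each, and the anti-apoptotic *Bcl2l2* held 0. The pattern was written from knowledge of the family, so its presence in these genes is a description only.

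Depth was similar in all libraries, with 16933343 to 23960860 estimated counts per library, and replicates of a group correlated at 0.981 to 0.992 on the log2 CPM scale (CPM, counts scaled to a common library size). A count of 3, taken as the detection floor, was worth 0.125 to 0.177 CPM. The epithelial markers *Epcam*, *Cdh1*, *Krt8*, *Krt18* and *Cldn4* were all abundant, while none of the 5 collecting duct markers *Aqp2*, *Avpr2*, *Scnn1b*, *Slc14a2* and *Aqp3* reached the filter (summed level 0.669 to 3.18 CPM). The summed epithelial level was 2725 to 3173 CPM in DMSO-treated and 2077 to 2386 CPM in DOX-treated libraries, and *Krt8* fell at both times. None of 3 fibroblast markers was tested (highest count 24), and of 4 immune markers only *Cd68* passed the filter, and it fell at both times. *Ptprc* had 3 to 22 counts per library, and *Cd3e* and *Adgre1* at most 1. Of 3 endothelial markers *Pecam1* and *Kdr* were tested and not called (summed level 1.39 to 3.08 CPM). The summed level of the 4 immune markers was 15.97 to 22.16 CPM with DMSO and 8.515 to 12.01 CPM with DOX. Nearly all of it was *Cd68*, which averaged 17.75 and 20.14 CPM with DMSO at 3 and 6 days, and 9.13 and 10.83 CPM with DOX. Whether these shifts bear on the BCL2 family values was not tested. One library, replicate 1 of DOX at 3 days, stood apart: without it the number of genes called at 3 days rose from 1658 to 2297, and that of the 10 from 0 to 1 (*Bax*).

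In DMSO-treated cells the pore-former *Bax* was the most abundant of the 10 transcripts and *Bcl2* the least, on the length-corrected TPM scale. *Bax* averaged 127 ± 9.39 TPM (SD, n = 8), with a lowest, median and highest value of 117, 128 and 146 TPM. Next came the guardians *Bcl2l1* at 72.1 ± 4.71 TPM and *Mcl1* at 69.5 ± 5.57 TPM, whose ranges overlapped, with *Bcl2l1* the higher in 7 of 8 libraries. *Pmaip1*, encoding NOXA, the BH3-only partner of MCL1, followed at 55.4 ± 6.69 TPM, and its range overlapped that of *Mcl1*, although *Mcl1* was the higher in 8 of 8 libraries.

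*Bad*, whose protein is inactivated by survival kinases, stood at 40.7 ± 3.31 TPM. *Bak1* at 33.2 ± 3.32 TPM and *Bid*, the link from death receptors to mitochondria, at 32.8 ± 1.79 TPM could not be ordered, since *Bak1* exceeded *Bid* in 3 of 8 libraries. The ranges of *Bad* and *Bak1* also overlapped, although *Bad* was the higher in 8 of 8 libraries. *Bcl2l11* (BIM) followed at 17.6 ± 1.74 TPM and *Bbc3* (PUMA) at 9.18 ± 1.13 TPM. *Bcl2* was far below all others at 1.61 ± 0.280 TPM, with a lowest, median and highest value of 1.14, 1.57 and 2.03 TPM. Its estimated count was 128 to 252 reads in these libraries, against 1226 to 1717 for *Bax*. Of the 3 anti-apoptotic genes, *Bcl2l1* and *Mcl1* thus held nearly all of the transcripts.

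**Figure D1:**
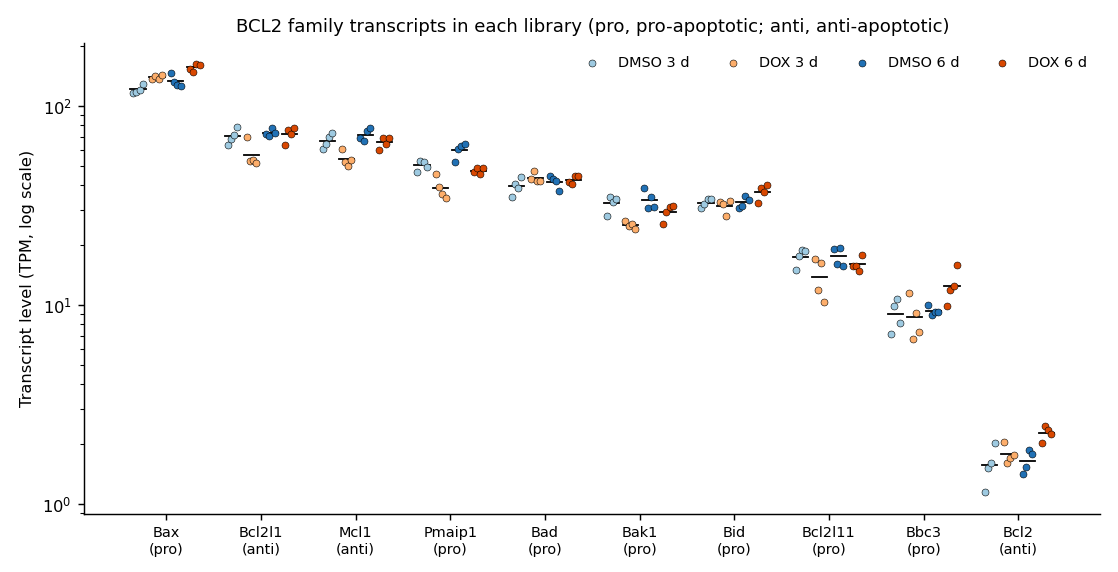
Transcript level in TPM (vertical axis, log scale) of the 10 genes, ordered by their mean in DMSO-treated cells, in each of the 16 libraries (points, coloured by group) with group means (bars). *Bax* lies above 100 TPM in every library and *Bcl2* between 1.14 and 2.47 TPM.

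No difference with culture time was called in the family. Between 3 and 6 days in DMSO, 0 of 10 genes were called by edgeR's quasi-likelihood test against a 1.2-fold threshold with Benjamini-Hochberg adjustment, against 0% of all tested genes, and 0 of 10 had an unadjusted p under 0.05. DESeq2 also called 0 of 10. The furthest apart was *Pmaip1*, with a log2 difference (6 minus 3 days) of 0.19 and a 95% interval of 0.07 to 0.31. *Bcl2l11* was at -0.16 with an interval of -0.31 to -0.004, and the intervals of the other members included 0. For all genes, 172 of 13234 had an unadjusted p under 0.05 against the threshold, and the fit without a filter called 6. Without the threshold 62 were called, and 2355 had an unadjusted p under 0.05.

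With DOX 1 of the 10 transcripts passed the test, the anti-apoptotic *Bcl2*, which rose 1.48-fold at 6 days. At 3 days 0 of 10 genes were called, where 12.5% of all tested genes were (5.30% higher and 7.22% lower). At 6 days 1 of 10 was called, where 21.6% of all genes were (10.0% higher and 11.6% lower). At 3 days 2 of 10, *Bcl2* and *Bax*, had an unadjusted p under 0.05, beside 2867 of all 13234 genes. DESeq2 called 0, beside 1019 genes. At 6 days *Bcl2* and *Bbc3* had such a p, beside 3771 genes, and DESeq2 called *Bcl2*, beside 1962 genes. The median log2 fold change of the 10 genes was -0.02 at 3 days and 0.07 at 6 days, beside 0.003 and -0.0006 over all tested genes. These are bulk measurements, in which fewer expressing cells and less RNA per cell cannot be told apart.

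Most differences in the family were small against their threshold. Without a threshold, 7 of 10 genes passed at 3 days, where 45.2% of all genes did, and 6 of 10 at 6 days, where 50.6% did. At 3 days 4 of the 7 were higher with DOX (*Bcl2*, *Bax*, *Bid* and *Bad*) and 3 lower (*Bak1*, *Pmaip1* and *Bcl2l11*). At 6 days 4 of the 6 were higher (*Bcl2*, *Bax*, *Bbc3* and *Bid*) and 2 lower (*Bak1* and *Pmaip1*). Pro-apoptotic genes stood on both sides at both times.

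**Figure D2:**
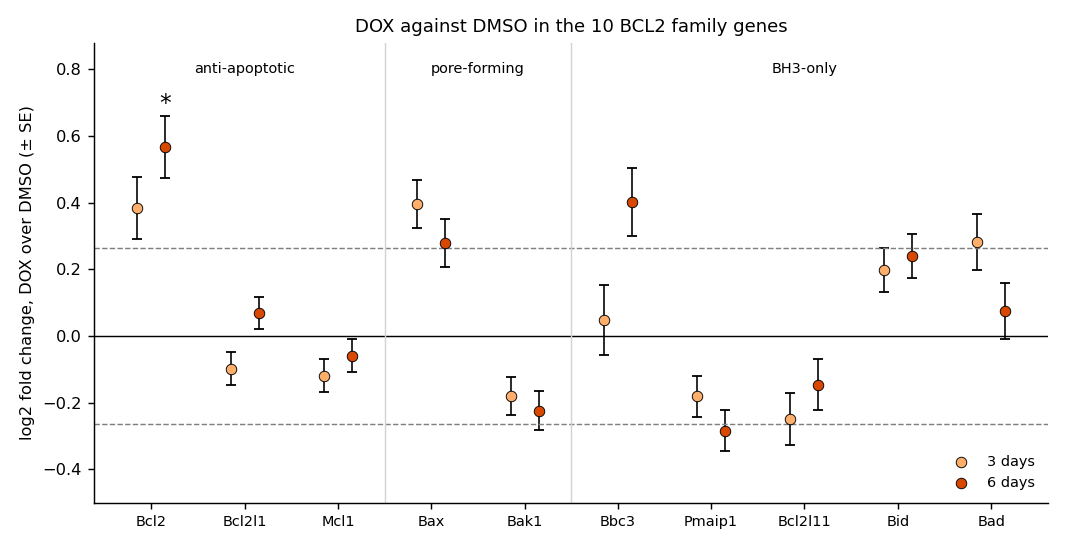
log2 fold change of DOX over DMSO (points) with its standard error (bars) for the 10 genes at 3 and 6 days. Dashed lines mark a 1.2-fold change in either direction and the asterisk an adjusted p under 0.05, which *Bcl2* alone reached, at 6 days.

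Among the anti-apoptotic genes, *Bcl2* (ENSMUSG00000057329, chr1:106538178-106714274, minus strand), the founding member of the family, moved most. At 3 days it measured 7.84, 8.98, 9.07 and 10.9 CPM in the DMSO-treated and 12.1, 11.9, 11.6 and 12.7 CPM in the DOX-treated replicates. At 6 days the values were 7.995, 8.74, 9.97 and 9.59 CPM with DMSO and 12.97, 14.0, 13.6 and 13.2 CPM with DOX. Every DOX-treated library lay above every DMSO-treated one at both times. The log2 fold change was 0.38 (SE 0.0936) at 3 days with an adjusted p of 0.172 in edgeR. The 6-day value was 0.57 (SE 0.0927), a fold of 1.48 with a 95% interval of 1.31 to 1.68 and an adjusted p of 0.00278. Without replicate 4 of DMSO at 3 days, the library with the highest *Bcl2* of that group, the 3-day difference was 0.48 with an adjusted p of 0.0338. The 6-day call was kept in 25 of 26 alternatives. It was lost by limma on log2(TPM + 1), where the difference was 0.31 with an adjusted p of 1. With group means of 1.65 and 2.28 TPM, the added 1 makes the difference smaller on that scale.

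Whether the *Bcl2* effect was larger at 6 days was not resolved: the difference of the effects was 0.18 on the log2 scale, with an interval of -0.08 to 0.44 and an adjusted p of 0.363. In TPM, *Bcl2* went from 1.65 in DMSO-treated to 2.28 in DOX-treated cells at 6 days on average, so that it remained the scarcest of the 10 transcripts. An annotated antisense gene, D630008O14Rik, overlaps *Bcl2* exons, and its count was 0 in all 16 libraries.

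*Bcl2l1* and *Mcl1*, the abundant guardians, stayed within narrow bounds. *Bcl2l1* (chr2:152780668-152831728) measured 125, 126, 123 and 129 CPM with DMSO and 124, 120, 114 and 113 CPM with DOX at 3 days. The 6-day values were 131, 125, 123 and 125 CPM with DMSO and 125, 134, 133 and 138 CPM with DOX. The groups overlapped at both times, with log2 fold changes of -0.10 (SE 0.0490) and 0.07 (SE 0.0488), the second being -0.0271 on the log2(TPM + 1) scale. The 95% interval of the fold was 0.875 to 0.999 at 3 days and 0.982 to 1.12 at 6 days, so that a change of 1.2-fold lay outside both. The difference of the 2 effects was 0.17 (interval 0.03 to 0.30) with an adjusted p of 0.100, and it was called when replicate 1 of DOX was left out at either time.

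*Mcl1* (chr3:95658788-95663176), a short-lived guardian, measured 188 to 195 CPM with DMSO and 169 to 183 CPM with DOX at 3 days, without overlap. At 6 days the ranges were 184 to 208 CPM and 182 to 195 CPM, and overlapped. Its fold was 0.921 (95% interval 0.861 to 0.985) at 3 days and 0.960 (0.898 to 1.03) at 6 days, also within 1.2-fold. Of the genes for enzymes that add or remove ubiquitin on MCL1, 0 of 4 were called at 3 days by edgeR or DESeq2. There 1 of 4 had an unadjusted p under 0.05, beside 2867 of all 13234 genes. At 6 days 2 of 4 were called lower by edgeR, beside 11.6% of all genes. These were the deubiquitinases *Usp9x* (-0.49, adjusted p = 0.00872, and 0.0556 by DESeq2, which did not call it) and *Usp13* (-0.76, adjusted p = 0.000150), the latter at -0.43 with an adjusted p of 0.393 under a transcript length offset. The ubiquitin ligase genes *Huwe1* and *Fbxw7* were at 0.05 and -0.02 at 6 days.

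The 2 pore-forming genes went in opposite directions, and neither passed the threshold. *Bax* (chr7:45461697-45466898) measured 75.1, 71.7, 70.9 and 70.6 CPM with DMSO and 83.1, 100.2, 96.3 and 99.6 CPM with DOX at 3 days. The 6-day values were 87.3, 77.5, 71.5 and 68.1 CPM with DMSO and 93.6, 85.4, 95.97 and 94.5 CPM with DOX. At 3 days every DOX-treated library was the higher, with replicate 1 the lowest of its group, and at 6 days the ranges met at 1 library on each side. The log2 fold change was 0.40 ± 0.0716 (SE) with an adjusted p of 0.0743 at 3 days, and 0.28 ± 0.0714 with 0.479 at 6 days. Without replicate 1 of DOX at 3 days the first value was 0.45 with an adjusted p of 0.00884, and leaving out replicate 1 of DMSO at 6 days gave 0.40 with 0.0416. The protein-coding gene Gm45808 shares *Bax* exons on the same strand, but its count was 0 in all 16 libraries.

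*Bak1* (chr17:27019810-27029009) was lower with DOX in every library at both times. It measured 51.4, 51.7, 52.4 and 48.2 CPM with DMSO and 41.2, 46.1, 45.8 and 46.7 CPM with DOX at 3 days. At 6 days the values were 52.5, 50.9, 51.6 and 47.4 CPM with DMSO and 41.6, 43.5, 45.9 and 42.4 CPM with DOX. The fold was 0.883 (95% interval 0.816 to 0.955) at 3 days and 0.857 (0.792 to 0.926) at 6 days, with adjusted p-values of 1 and 0.896 against the threshold. A gene on the opposite strand, *Ggnbp1*, shares exonic sequence with *Bak1* and had 124 to 273 counts per library. The strand setting of the quantification is not given in the sources used here, so reads in the shared part cannot be assigned to one of the 2 genes with certainty.

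Among the BH3-only genes 0 of 5 were called at either time. *Bbc3* (chr7:16308393-16318205), encoding PUMA, came closest, at 6 days. At 3 days it measured 10.0, 11.3, 10.5 and 9.47 CPM with DMSO and 12.9, 9.76, 10.3 and 9.72 CPM with DOX. After 6 days the values were 12.2, 10.1, 10.5 and 9.22 CPM with DMSO and 12.1, 14.3, 14.1 and 14.8 CPM with DOX. At 6 days 3 DOX-treated libraries stood above all DMSO-treated ones and replicate 1 did not. The log2 fold change was 0.05 ± 0.106 (SE) at 3 days and 0.40 ± 0.103 at 6 days, the latter with an adjusted p of 0.116, and the difference of the effects was 0.35 (interval 0.07 to 0.64, adjusted p = 0.100). Leaving out replicate 1 of DMSO or of DOX at 6 days gave 0.48 and 0.46 with adjusted p-values of 0.0315 and 0.0478. Without replicate 1 of DOX at 3 days the 3-day value was -0.06.

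*Pmaip1* was lower with DOX. It measured 110.0, 113.5, 107.7 and 100.1 CPM with DMSO and 101.0, 99.2, 88.9 and 91.3 CPM with DOX at 3 days, with overlap at 1 library. At 6 days the values were 112, 130, 124 and 126 CPM with DMSO and 107, 105, 95.3 and 97.5 CPM with DOX, without overlap. Its fold was 0.882 (95% interval 0.812 to 0.959) at 3 days and 0.822 (0.757 to 0.892) at 6 days, with adjusted p-values of 1 and 0.434.

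*Bcl2l11* (chr2:128126038-128162547) measured 54.8, 54.2, 55.5 and 54.2 CPM with DMSO at 3 days and 52.8, 44.3, 47.4 and 39.4 CPM with DOX, all lower. The log2 fold change was -0.25 ± 0.0774 (SE) with an adjusted p of 0.744 at 3 days, and -0.15 ± 0.0776 with 1 at 6 days, where the ranges overlapped. *Bid* (chr6:120891930-120916853) measured 49.1, 49.8, 51.8 and 50.6 CPM with DMSO at 6 days and 55.8, 63.1, 58.3 and 60.6 CPM with DOX, all higher. Its log2 fold change was 0.24 (SE 0.0657, adjusted p = 0.747), and 0.20 (SE 0.0661, adjusted p = 1) at 3 days, where the ranges overlapped. On the log2(TPM + 1) scale the 3-day value was -0.0484, with the median of all genes at -0.149. Exons of *Bid* and of *Bcl2l13*, on opposite strands, overlap, and *Bcl2l13* had 1545 to 2565 counts per library.

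*Bad* (chr19:6941861-6951899) measured 27.3, 29.7, 27.2 and 29.2 CPM with DMSO and 29.3, 37.8, 35.1 and 35.95 CPM with DOX at 3 days, with overlap at 1 library. Its log2 fold change was 0.28 ± 0.0831 (SE) with an adjusted p of 0.559 at 3 days, and 0.07 ± 0.0833 with 1 at 6 days. It shares exonic sequence with *Gpr137* on the opposite strand, which had 341 to 558 counts per library.

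**Figure D3:**
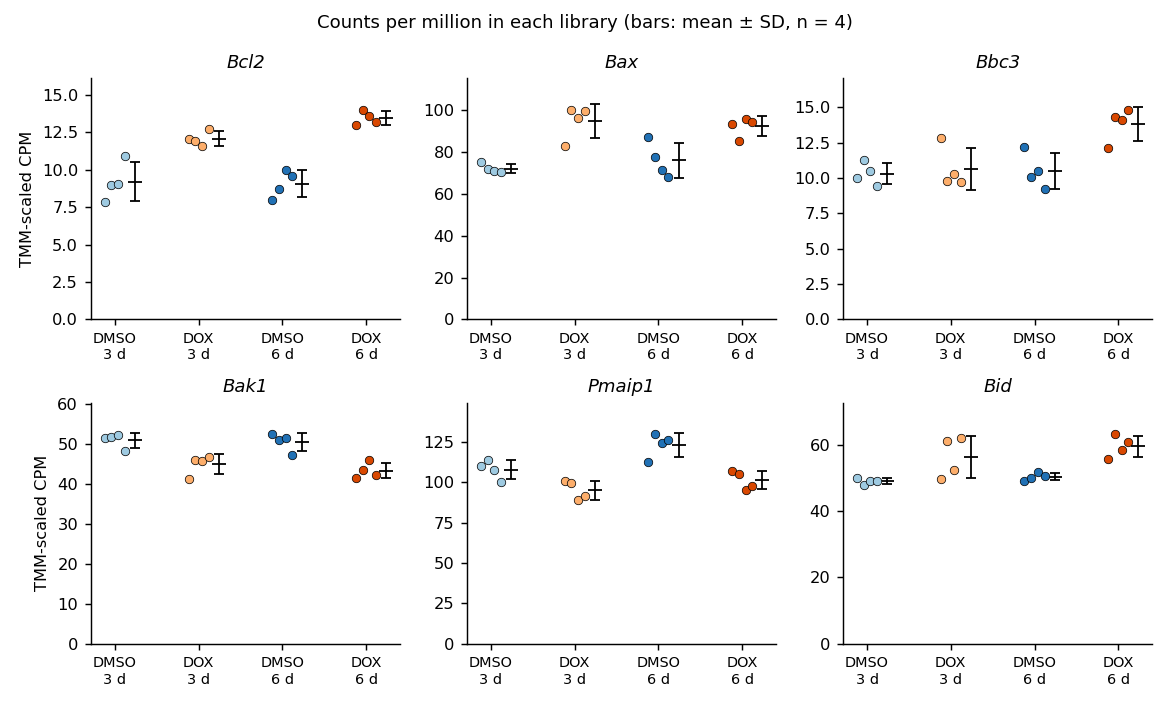
TMM-scaled CPM of 6 genes in each library (points), with the group mean and SD (bars, n = 4) and vertical axes starting at 0. With DOX *Bcl2* lies above and *Bak1* below every DMSO-treated library at both times, and replicate 1 is the lowest DOX-treated *Bax* value at 3 days (83.1 CPM).

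Counted over the family, the DOX and DMSO libraries did not overlap for 5 of 10 genes at 3 days (2 higher, 3 lower), where this held for 38.6% of all tested genes. The same held for 4 of 10 at 6 days (2 higher, 2 lower), where the share of all genes was 43.0%. *Bcl2* and *Bak1* were in both groups. In a test without a fold threshold, the DOX effect differed between the 2 times for 0 of 10 genes, where 17.0% of all tested genes were called. At an unadjusted p under 0.05, 2 of 10 passed that test (*Bcl2l1* and *Bbc3*), beside 4218 of all 13234 genes. DESeq2 called 0, beside 2596 genes. Estimated count per TPM is a measure that moves when transcripts of a gene differ in length. Its mean shifted by at most 5.59% between DOX and DMSO in the 10 genes, with overlapping ranges in each. How often such ranges overlap over all genes was not counted.

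The balance of the 2 sides had no single direction over the scales tried. With each gene counted equally, the mean log2 CPM of the 7 pro-apoptotic minus the 3 anti-apoptotic genes was -0.47 ± 0.0976 (SD, n = 4) with DMSO and -0.49 ± 0.0439 with DOX at 3 days. The 6-day values were -0.45 ± 0.124 with DMSO and -0.59 ± 0.0343 with DOX. The differences, DOX minus DMSO, were -0.02 and -0.14, and the groups overlapped at both times. The sign at 3 days was not set even with equal weights, since the difference was 0.0447 on log2(TPM + 1), 0.0144 with a transcript length offset and 0.0449 with *Bax* and *Bak1* alone as the pro-apoptotic side. At 6 days these gave -0.0296, -0.0788 and -0.16. At 6 days the anti-apoptotic mean alone was higher with DOX by 0.19 without overlap. In that mean *Bcl2* weighs as much as *Bcl2l1*, although its TPM is far lower.

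With transcripts summed in TPM, so that abundant genes weigh most, the ratio of pro- to anti-apoptotic transcripts was 2.18 ± 0.0877 with DMSO and 2.69 ± 0.218 with DOX at 3 days. The 4 DOX-treated libraries (2.37 to 2.85) lay above the 4 DMSO-treated ones (2.07 to 2.28). At 6 days the ratio was 2.24 ± 0.147 with DMSO and 2.44 ± 0.131 with DOX, with overlap. The summed pro-apoptotic level at 3 days was 303 ± 16.6 TPM with DMSO and 302 ± 9.40 TPM with DOX, while the anti-apoptotic sum was 139 ± 11.7 and 113 ± 13.1 TPM, with overlap in both. On log2(TPM + 1) the median of all genes moved by -0.149 at 3 days, and the sums are not corrected for this. On the TMM scale the 3-day folds were 1.31 for *Bcl2*, 0.935 for *Bcl2l1* and 0.921 for *Mcl1*. The summed ratio differs from the mean log2 CPM in both its weights and its unit. These are scores over chosen genes and were given no test.

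For single pairs, *Bax* against *Bcl2l1* (log2 CPM of the first minus the second) was -0.80 ± 0.0540 with DMSO and -0.31 ± 0.179 with DOX at 3 days, without overlap. The 6-day differences, -0.73 ± 0.123 and -0.52 ± 0.103, overlapped. The *Bax* to *Bcl2* ratio in TPM was 79.9 ± 16.2 with DMSO and 79.4 ± 8.73 with DOX at 3 days. It was 82.5 ± 16.2 and 69.2 ± 6.50 at 6 days, and the groups overlapped at both times.

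**Figure D4:**
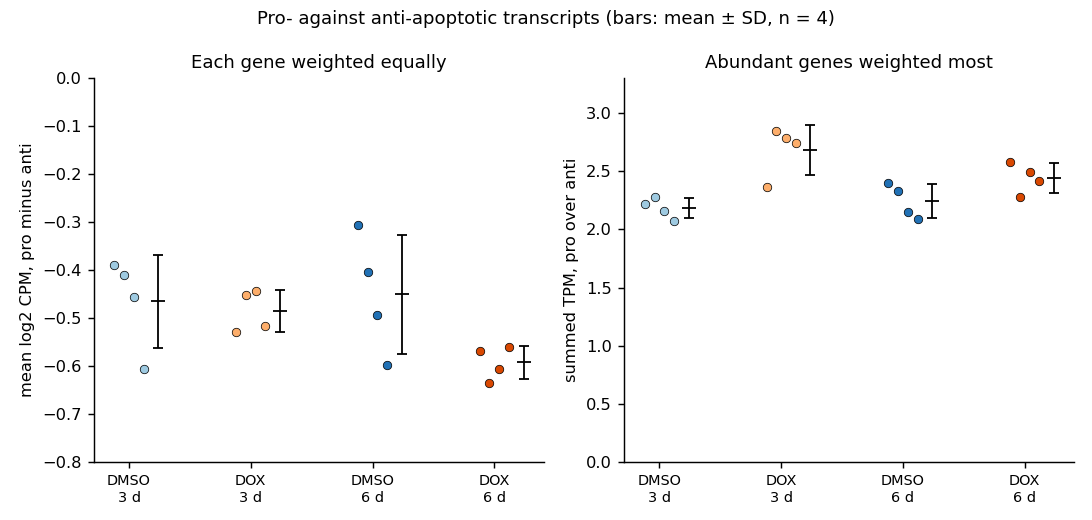
Pro- against anti-apoptotic transcripts in each library (points; bars, mean ± SD, n = 4), as the difference of mean log2 CPM (left) and as the ratio of summed TPM (right). With DOX the left measure is lower by 0.02 at 3 days and 0.14 at 6 days, and the right one higher by 0.50 and 0.20.

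Of 57 further apoptosis genes, 48 were tested: 4 were called higher and 5 lower with DOX at 3 days (18.8%), and 6 higher and 10 lower at 6 days (33.3%). Beside these stand 12.5% and 21.6% of all genes. The difference of the effects, tested without a threshold, was called for 6 higher and 9 lower (31.2%), beside 17.0% of all genes. Of 15 other BCL2 family genes 9 were tested, and 1 rose and 1 fell at 3 days, 2 rose and 4 fell at 6 days. *Hrk*, a BH3-only gene best known from neurons, measured 0.209 to 0.630 CPM with DMSO and 1.19 to 1.55 CPM with DOX at 3 days. At 6 days its range was 0.179 to 0.460 CPM with DMSO and 1.88 to 2.495 CPM with DOX. It passed the filter of 1 CPM only through the DOX-treated libraries and so had to differ. Its log2 fold changes, 1.52 (SE 0.291) and 2.81 (SE 0.297), are therefore a description, and the counts of calls above include it at both times and for the difference of effects. Without it, 1 other relative fell at 3 days, and 1 rose and 4 fell at 6 days. Its counts were 3 to 11 per DMSO-treated and 22 to 61 per DOX-treated library, so the low end is close to the floor and the fold is imprecise. By limma on log2(TPM + 1) *Hrk* was not called at either time (adjusted p of 1 and 0.0564). Its mean TPM with DMSO and DOX was 0.126 and 0.340 at 3 days, and 0.065 and 0.4835 at 6 days. The added 1 shrank the log2 differences to 0.25 and 0.48. The first is below the 1.2-fold threshold, so this scale could not test *Hrk* at 3 days.

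*Bmf*, the BH3-only gene whose protein is held at the actin cytoskeleton, went the other way. It measured 5.94 to 9.03 CPM with DMSO and 3.55 to 4.31 CPM with DOX at 3 days, and 4.76 to 6.07 against 2.87 to 3.88 CPM at 6 days. In edgeR on the log2 scale it fell by 0.93 (SE 0.138, adjusted p = 0.000288) and then by 0.76 (SE 0.142, adjusted p = 0.00200). By limma on log2(TPM + 1) both *Bmf* calls were lost (adjusted p of 0.0521 and 0.452). Its group means were 0.931 to 2.01 TPM, so the added 1 makes the differences smaller there (-0.61 and -0.42). *Bik*, a BH3-only gene of the endoplasmic reticulum, fell at 6 days (-0.62, adjusted p = 0.00564), and so did the pore-forming relative *Bok* (-0.51, adjusted p = 0.000937) and the mitophagy receptor gene *Bnip3l* (-0.43, adjusted p = 0.0166). *Bcl2l2*, encoding the guardian BCL-W, rose at 6 days (0.42, adjusted p = 0.0157). The calls of *Bcl2l2*, *Bik* and *Bnip3l* were not made by DESeq2, nor that of *Bcl2l2* by limma on log2(TPM + 1). With a transcript length offset in edgeR, *Bcl2l2* was at 0.34 (adjusted p = 0.27) and *Bnip3l* at -0.40 (adjusted p = 0.056). The protein-coding gene Gm20521 shares *Bcl2l2* exons on the same strand, and its counts were not examined. Without replicate 3 of DOX at 6 days *Bcl2l2* and *Bnip3l* had adjusted p-values of 0.0597 and 0.0548. The 6 untested relatives had at most 18 counts in any library.

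Of the factors released from mitochondria and the apoptosome genes, 2 of 7 were called at 3 days and 1 of 7 at 6 days, beside 12.5% and 21.6% of all genes. *Htra2*, a protease that antagonizes inhibitors of apoptosis, rose at both times (0.49, adjusted p = 0.00913, and 0.47, adjusted p = 0.00701). *Apaf1*, the scaffold of the apoptosome, fell from 40.9 to 43.3 CPM with DMSO to 28.4 to 32.6 CPM with DOX at 3 days (-0.44, adjusted p = 0.0117). At 6 days it was at 0.07, and the difference of its effects was 0.51 (adjusted p = 0.00126). DESeq2 called neither *Htra2* nor *Apaf1* at a single time, but it did call the *Apaf1* difference. Without replicate 3 of DOX at 3 days the *Apaf1* call was lost (adjusted p = 0.0539). *Cycs*, encoding cytochrome c, was at 0.12 and -0.16 and *Casp9*, the initiator caspase gene, at -0.27 and -0.13, neither called.

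Of 5 caspase genes 0 were called at either time by edgeR or DESeq2, beside 12.5% and 21.6% of all genes by edgeR. Against the 1.2-fold threshold of edgeR an unadjusted p under 0.05 was found for 0, beside 2867 of all 13234 genes at 3 days and 3771 at 6 days. The difference of effects was tested without a threshold. There 2 of 5 were called lower by both tools, beside 17.0% of all genes called in either direction by edgeR. These were *Casp6* (-0.38, adjusted p = 0.00880) and *Casp8* (-0.25, adjusted p = 0.0272), and limma on log2(TPM + 1) called 0. The DOX effects on *Casp6* and *Casp8* were 0.13 and 0.07 at 3 days, and -0.25 (SE 0.0645) and -0.18 (SE 0.0536) at 6 days. In DMSO their log2 differences, 6 minus 3 days, were 0.28 and 0.15, neither called. Among 5 inhibitor of apoptosis genes, 1 fell at 3 days and 3 at 6 days, beside 7.22% and 11.6% of all genes called lower. *Birc3* fell at both times (-0.63, adjusted p = 0.00209, and -0.65, adjusted p = 0.000579). *Xiap*, the direct caspase inhibitor, fell at 6 days (-0.52, adjusted p = 0.00715), from 53.0 to 74.3 CPM with DMSO to 43.2 to 46.7 CPM with DOX, and was at -0.36 at 3 days (adjusted p = 0.225). *Birc5* (survivin), which also serves in cell division, fell at 6 days (-0.69, adjusted p = 5.13e-06) and was at -0.01 at 3 days. The difference of its effects was called (adjusted p = 0.000305).

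In the death receptor branch 7 of 9 genes were tested, and 1 was called at 3 days and 3 at 6 days, beside 12.5% and 21.6% of all genes. The difference of effects, tested without a threshold, was called higher for 4 of 7 by edgeR and DESeq2. Of all genes edgeR called 7.44% higher, and DESeq2 1082 of 13234. The 4 were *Fas*, *Tnfrsf10b*, *Tnfrsf1a* (0.24, adjusted p = 0.0210) and the kinase gene *Ripk1* (0.42, adjusted p = 0.0128). By limma on log2(TPM + 1) it was called for *Fas* of these 4. *Fas*, the receptor gene, measured 1.65 to 2.34 CPM with DMSO and 1.79 to 2.19 CPM with DOX at 3 days. The 6-day range was 1.66 to 2.30 CPM with DMSO and 4.85 to 5.58 CPM with DOX. The log2 fold change at 6 days was 1.41 (SE 0.149, adjusted p = 8.06e-07), and the difference from 3 days was 1.39 (adjusted p = 0.000630). *Tnfrsf10b*, the mouse TRAIL receptor gene, rose at 6 days (0.37, adjusted p = 0.0322), a call that DESeq2 did not make and that was lost (adjusted p of 0.0517 to 0.0750) without replicate 2 of DMSO at 3 days, replicate 4 of DMSO at 6 days, or replicate 2, 3 or 4 of DOX at 6 days. *Cflar*, encoding the caspase-8 inhibitor FLIP, fell at both times (-0.54, adjusted p = 0.00521, and -0.56, adjusted p = 0.00197). With an offset for transcript length the 3-day *Cflar* value was -0.33 with an adjusted p of 0.316. The ligand gene *Fasl* had at most 1 count per library.

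The 5 genes listed for membrane partners of the BCL2 family (*Vdac1*, *Vdac2*, *Vdac3*, *Mtch2* and *Bcap31*) gave 0 calls in edgeR at either time. Of all genes 12.5% and 21.6% were called. DESeq2 also called 0 of 5. Against the 1.2-fold threshold 0 had an unadjusted p under 0.05 in edgeR, beside 2867 and 3771 of all 13234 genes. In the order given, the log2 fold changes at 3 days were 0.11, 0.29, 0.34, 0.22 and 0.07 (SE 0.0536 to 0.0761). At 6 days they were -0.09, -0.09, 0.07, -0.11 and -0.09. The difference of the DOX effects was tested without a threshold, so its counts are not comparable with those at single times. On these 5 it was called lower in edgeR for 2, beside 9.58% of all genes. These were *Vdac2* (-0.38, adjusted p = 0.0157) and *Mtch2* (-0.33, adjusted p = 0.0114). DESeq2 called 3 of 5, beside 2596 of 13234 genes, and limma on log2(TPM + 1) called 1, beside 659 of 13180. An unadjusted p under 0.05 in edgeR was found for 5 of 5, beside 4218 of 13234 genes. Of 7 transcription factors known to act on BCL2 family genes, 6 were tested. *Trp53*, encoding p53, was at 0.20 and 0.16 and was not called. *Ddit3* (CHOP), the stress factor, rose at both times (0.90, adjusted p = 4.53e-07, and 0.60, adjusted p = 0.000288). *Atf4* rose at 3 days (0.60, adjusted p = 8.56e-05) and was at 0.35 at 6 days (adjusted p = 0.106). *Foxo1* fell at 3 days (-0.51, adjusted p = 0.00680) and was at -0.39 at 6 days (adjusted p = 0.0741).

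**Figure D5:**
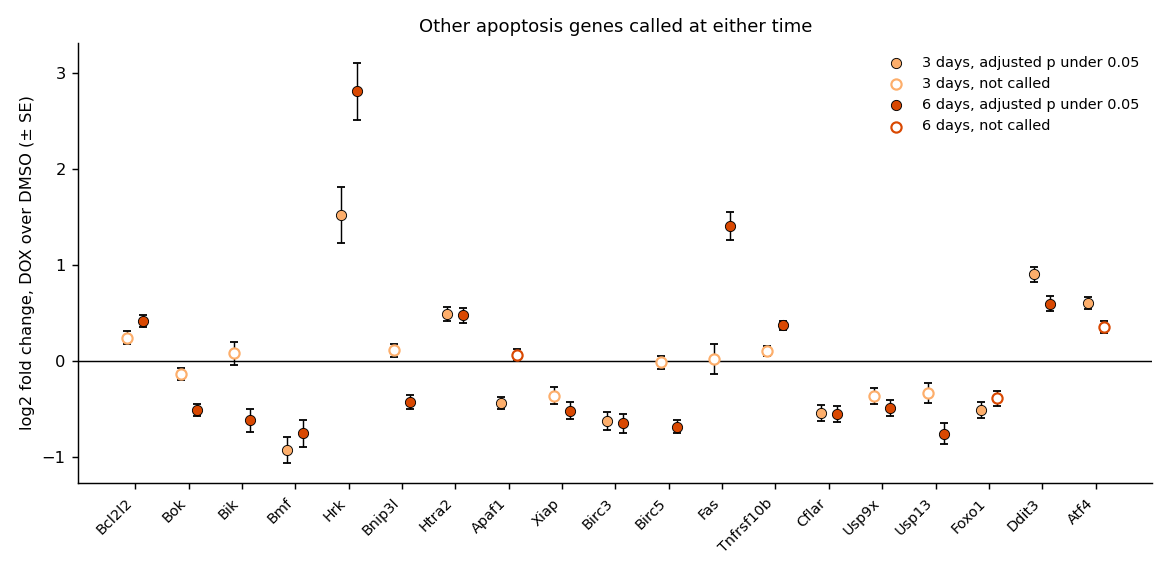
log2 fold change of DOX over DMSO with its standard error for the 19 of 57 further apoptosis genes called at 3 or 6 days. Filled points have an adjusted p under 0.05, open points do not. *Hrk* and *Fas* reach the highest values, 2.81 and 1.41 at 6 days.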

How the data were processed

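Poly(A) RNA of 16 mIMCD3 samples was made into directional libraries and sequenced as read pairs on an Illumina instrument. The authors aligned reads with STAR to GRCm38.p6 and quantified transcripts with salmon. They deposited estimated counts per gene, not normalized, and TPM per gene. The strand setting and annotation release are not given in the sources used here. Identifiers were matched to GENCODE M21.

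Estimated counts were rounded. The 13234 genes reaching 1 CPM in 4 or more libraries entered a robust quasi-likelihood fit with TMM scaling over all 16 libraries (R 4.3.3, edgeR 4.0.16). DOX was compared with DMSO at each time by a two-sided glmTreat with a 1.2-fold threshold. The difference of effects used glmQLFTest without a threshold. Benjamini-Hochberg adjustment covered every tested gene, and an adjusted p under 0.05 was a call. The SE is the size of the log2 fold change divided by the square root of F, and 95% intervals are normal ones. Printed CPM are TMM-scaled. On simulated counts the fit recovered 93.1% of changes of 2-fold or more at both times. Of 1.5-fold changes it recovered 58.7% at 3 days and 73% at 6 days, so a change of that size can go uncalled.

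The 10 genes, the further lists and the marker lists were chosen with earlier results of these data known. All 10 genes were named. Of the further lists, genes called at either time were named, plus *Cycs*, *Apaf1*, *Casp9* and *Xiap*. A further gene that the rule names whatever its values is not reported here. *Trp53*, *Huwe1*, *Fbxw7*, *Fasl*, *Bnip3*, *Casp6*, *Casp8*, *Tnfrsf1a*, *Ripk1* and the membrane partner genes were named after their values were seen. Alternatives were RLE scaling, other filters, no robust step, no threshold, a replicate block, 8 libraries, a transcript length offset, DESeq2 1.42.0, limma 3.58.1 on log2(TPM + 1), and leaving out each library.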

Additional observations from a re-analysis of the deposited data

Results flagged for a closer look

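Among 44 sets of 4 libraries examined for a single distant value, 1 stood out, and chance gives about 5% of sets. It was *Bak1* in replicate 1 of DOX at 3 days, at 41.2 CPM beside 45.8 to 46.7 CPM in the other replicates. *Bak1* was also lower with DOX at 6 days, where no library stood out.

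For 15 of 48 tested apoptosis genes outside the set of 10, the DOX effect at 6 days differed from that at 3 days by edgeR's test of the difference itself, beside 17.0% of all genes. On the log2 scale, 6 days minus 3 days, it was higher for *Hrk* (1.29), *Fas* (1.39), *Apaf1* (0.51), *Ripk1* (0.42), *Tnfrsf10b* (0.27) and *Tnfrsf1a* (0.24). It was lower for *Bik* (-0.70), *Birc5* (-0.67), *Bnip3* (-0.66), *Bnip3l* (-0.54), *Bok* (-0.38), *Casp6* (-0.38), *Vdac2* (-0.38), *Mtch2* (-0.33) and *Casp8* (-0.25). The *Hrk* difference rests on 3 to 61 counts per library, DESeq2 did not call it, and *Hrk* passed the filter only through the DOX-treated libraries, so its value is a description.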

How the results depend on the processing

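The number of the 10 genes called at 3 days was 7 without the fold threshold, 0 to 1 when single libraries were left out, and 0 in the 9 other alternatives. At 6 days it was 6 without the threshold, 1 to 2 when single libraries were left out and 0 by limma on log2(TPM + 1). For the difference of effects it was 0 to 2 when single libraries were left out and 0 otherwise. The gene gained at 3 days was *Bcl2* (without replicate 4 of DMSO at 3 days) or *Bax* (without replicate 1 of DOX at 3 days or of DMSO at 6 days). At 6 days it was *Bbc3* (without replicate 1 of either treatment at 6 days). For the difference, *Bcl2l1* and *Bbc3* were gained without replicate 1 of DOX at 3 or at 6 days, and *Bbc3* without replicate 1 of DMSO at 6 days. The cause was not tested.

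Directions turned for uncalled values only. By limma on log2(TPM + 1) *Bcl2l1* at 6 days was -0.0271, *Bbc3* at 3 days -0.0555 and *Bid* at 3 days -0.0484. When single libraries were left out, *Bbc3* at 3 days ranged from -0.0563 (without replicate 1 of DOX at 3 days) to 0.0898. The pro- minus anti-apoptotic difference was 0.30 at 3 days and 0.13 at 6 days as a log2 ratio of summed TPM, and -0.0296 at 6 days on log2(TPM + 1). At 3 days, where it was -0.02, it also turned to 0.0447 on log2(TPM + 1), 0.0449 with *Bax* and *Bak1* alone and 0.0144 with the length offset. When single libraries were left out it was -0.0667 to 0.00549 at 3 days and -0.191 to -0.0944 at 6 days. The TPM scale moved the median of all genes by -0.149 at 3 days, -0.0547 at 6 days and 0.104 for the difference of effects. On it 701 genes (12.1% higher, against 42.3% of 1658) were called at 3 days and 1307 (28.8% against 46.4% of 2856) at 6 days.

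DESeq2 called 1019 genes at 3 days. Without the threshold 5982 and 6702 were called. The 2252 calls for the difference of effects became 183 with a threshold, 1270 with the length offset, 659 by limma and 1370 to 3788 when single libraries were left out. With a replicate block the 10 genes gave 0 calls at 3 days and 1 at 6 days, as without it. Replicate numbers did not pair the libraries, since deviations of equally numbered ones correlated at -0.433 to 0.178. For the further genes 608 of 648 values kept their call and direction and 40 lost the call.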
